A study of Rattus norvegicus with 2 samples.

Results

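The transcripts described here encode the receptors of the epidermal growth factor (EGF) family, their ligands and a feedback inhibitor of the receptors. The receptors are Egfr, Erbb2 and Erbb3, the ligands are Areg, Ereg, Hbegf, Tgfa and Btc, and the inhibitor is Errfi1. Members were taken by gene, as every gene probe on both arrays whose listed transcript belongs to 1 of these rat genes. They make up 9 of the 15159 genes that could be named on the array, with 12 of its 30367 gene probes and 30 spots. The measurements come from RMT-1 cells, a tumour line of the rat mammary gland sold as clone E4, so every value describes a single clone. The cells grew in RPMI-1640 medium with 10% fetal bovine serum. One group was transfected with a negative control siRNA and the other transiently with an siRNA against Pla2g4c, which encodes a cytosolic phospholipase A2. Total RNA of each group went onto 1 one-colour Agilent array, called the control array and, after its label, the knockdown array here, so there was no replicate and no test. The siRNA sequences, doses and the time from transfection to harvest are not given in the sources used here. The series title names apoptosis after Pla2g4c repression as its subject, and the comparison asks which EGF receptor and ligand transcripts differed between the 2 transfections.

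EGF receptors are transmembrane tyrosine kinases that pair when a ligand binds and then signal through the RAS-MAPK and PI3K-AKT cascades. Their ligands are made as membrane-bound precursors and released by proteases of the ADAM family. In the mammary gland amphiregulin, the product of Areg, drives duct outgrowth, and Erbb2 was first found as the oncogene neu of rat tumours.

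Promoter windows from RefSeq (build GRCr8) were available for 7 of the 9 members, and 4 are shown, from members on both sides of 0 in the differences below: Egfr and Areg, which were lower with the Pla2g4c siRNA, and Tgfa and Errfi1, which were higher. Areg, the ligand with the most spots, had the smallest difference of the measured members. Each holds the 250 bases before the gene's annotated start, 5′ to 3′ on the gene's strand, with exact motif matches in capitals. They lie at chr14:17265642-17265891 on the minus strand (Areg), and on the plus strand at chr14:95378376-95378625 (Egfr), chr4:120175469-120175718 (Tgfa) and chr5:166606591-166606840 (Errfi1).
Areg: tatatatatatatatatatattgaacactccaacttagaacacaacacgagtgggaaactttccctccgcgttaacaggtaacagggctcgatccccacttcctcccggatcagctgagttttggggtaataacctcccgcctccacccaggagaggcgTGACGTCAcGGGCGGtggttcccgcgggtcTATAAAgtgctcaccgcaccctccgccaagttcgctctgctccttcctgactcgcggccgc
Egfr: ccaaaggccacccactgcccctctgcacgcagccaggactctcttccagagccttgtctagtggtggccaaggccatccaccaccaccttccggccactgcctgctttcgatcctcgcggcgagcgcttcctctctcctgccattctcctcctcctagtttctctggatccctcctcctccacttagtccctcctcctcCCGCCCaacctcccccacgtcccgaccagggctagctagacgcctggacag
Tgfa: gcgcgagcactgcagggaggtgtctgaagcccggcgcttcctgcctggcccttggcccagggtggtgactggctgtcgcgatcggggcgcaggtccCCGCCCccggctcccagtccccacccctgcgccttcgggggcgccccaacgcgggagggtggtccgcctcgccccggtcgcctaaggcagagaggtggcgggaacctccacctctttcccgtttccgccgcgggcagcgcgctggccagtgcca
Errfi1: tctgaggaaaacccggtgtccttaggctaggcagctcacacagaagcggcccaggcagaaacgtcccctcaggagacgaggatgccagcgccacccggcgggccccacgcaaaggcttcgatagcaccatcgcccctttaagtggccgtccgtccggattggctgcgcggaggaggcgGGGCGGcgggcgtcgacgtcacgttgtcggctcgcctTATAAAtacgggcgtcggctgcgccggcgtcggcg

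Motifs were searched on both strands as the AP-1 site TGANTCA, the cAMP response element TGACGTCA, the GC box GGGCGG, the TATA box TATAAA and the E-box CACGTG. The Areg window held a cAMP response element 91 to 84 bases before the start, a motif found in 1.59% of all 33465 promoter windows of this length. It also held a GC box and a TATA box. Errfi1 held a TATA box 35 to 30 bases before its start, a motif in 12.9% of windows. Each of the 4 windows held a GC box, as did 30.5% of all windows, and so did those of Btc and Erbb2. The members' windows were richer in G and C, from 54.4% (Areg) to 74.4% (Tgfa), against a median of 51.2% over all windows. The share with a GC box among windows of like G and C content was not computed. The AP-1 site and the E-box had no match in the 7 windows, and occurred in 6.34% and 5.59% of all windows. A match is a description of the letters and not of binding.

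A level could be obtained on both arrays for 9026 named genes, 8 of the 9 members among them. A probe was taken as measured if the scanner software flagged each of its spots on each array as well above background. Levels are given as relative signal, the processed signal divided by the 75th percentile of the gene spots of its array (852 for the control array, 1105 for the knockdown array). Differences are log2, Pla2g4c siRNA minus negative control siRNA. Each ± combines the software's mean error per spot on both arrays, averaged over the measured probes of a gene. It is a technical error that does not shrink with the number of spots or probes. Disagreement between probes and any spread between cultures are left out of it. At 2-fold, 263 genes (2.91%) were higher and 275 (3.05%) lower. Those counts were 369 and 190 in the authors' deposited normalized values, and 1169 and 68 when the arrays were scaled to 7 spike-in RNAs, with medians over all genes of 0.12 and 0.54 in place of -0.010. Each direction thus depends on the scaling, and is given against 0 under the 75th percentile unless another setting is named.

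Pla2g4c itself was not analysed here, since no probe could be matched to it, and the labels were not checked by the targeted transcript. The epithelial identity of the cells was visible on both arrays, with 8 of 10 epithelial markers well above background, and over all 10 the summed relative signal was 716 for the control array and 301 for the knockdown array. That sum is mostly Krt5, Krt14 and Krt17, with log2 relative signals of 7.54, 8.43 and 7.44 on the control array, where Cdh1 came next at 2.83. The basal keratins Krt5 and Krt14 differed by -1.72 ± 0.20 and -0.97 ± 0.20, and Krt17 by -1.63 ± 0.20. Cdh1 and Krt19 were also lower, at -0.63 and -0.30. The other 3 of the 8 measured markers were higher, the adhesion molecule Epcam by 1.03 ± 0.20, Krt8 by 0.86 ± 0.27 and Cldn4 by 0.093 ± 0.20. Of the markers of other cell types, 2 of 8 fibroblast genes stood well above background with the control siRNA and 3 with the Pla2g4c siRNA, with summed relative signals of 0.341 and 0.371. Of 5 endothelial genes with a probe 1 was above background on both arrays, with sums of 0.0937 and 0.0738. Of 9 leukocyte genes 5 were above background, with sums of 1.51 and 2.33. Among them Aif1 differed by 1.37 ± 0.20, Lyz2 by 0.60 ± 0.34, Csf1r by 0.094 ± 0.41, Cd68 by -0.39 and Cd14 by -0.25. The defining genes Ptprc, Cd3e and Itgam were not well above background. Of 4 adipocyte genes with a probe 0 stood above background with the control siRNA and Fabp4 did with the Pla2g4c siRNA, with sums of 0.0251 and 0.177. The part of these shifts in the results was not tested, and in bulk RNA fewer cells of a type and less RNA per cell cannot be told apart.

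Of the 9 members, 8 were measured on both arrays and 0 of them reached 2-fold in either direction, against 2.91% of all measured genes higher and 3.05% lower. At 1.5-fold the count was 0 as well, where 8.69% of all genes were higher and 10.3% lower. Within that range Egfr, Erbb2 and Areg were lower with the Pla2g4c siRNA, and Erbb3, Ereg, Tgfa, Hbegf and Errfi1 were higher, each relative to the 75th percentile. The median difference was -0.40 over the 3 receptors and 0.27 over the 4 measured ligands, against -0.010 over all genes. Of the receptors Erbb3 lay on the other side of 0, at 0.54. The receptor median was 0.15 with spike-in scaling, and the ligand median was -0.011 under normexp, another background correction. With 3 and 4 genes these medians describe the members and no more.

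**Figure D1:**
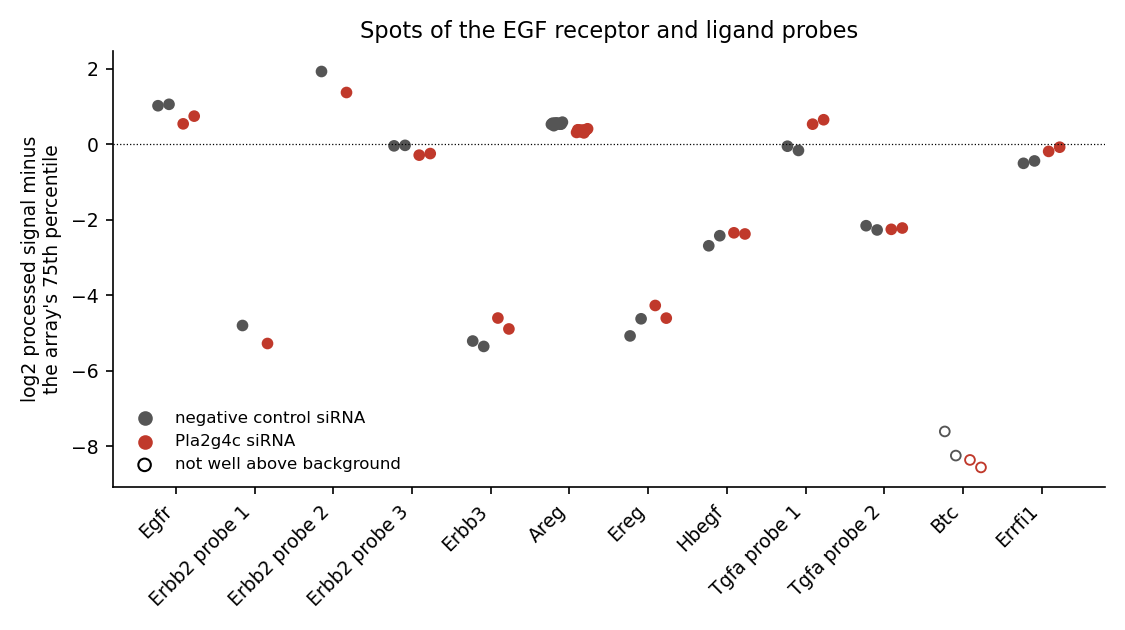
Each point is 1 spot, placed by the log2 of its processed signal over the 75th percentile of its array, for the 12 probes of the 9 members on the control array (grey) and the knockdown array (red), with open points for spots not well above background. The grey and red spots overlap within the second Tgfa probe and lie on separate sides in the other measured probes; heights of different probes cannot be compared.

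Egfr, the receptor of EGF, amphiregulin and transforming growth factor alpha, was measured by 1 probe with 2 spots. Its relative signals were 2.03 and 2.09 on the control array and 1.46 and 1.68 on the knockdown array, so that both spots of the latter lay below both of the former. The difference was -0.40 ± 0.20, or 1.32-fold lower. Before scaling, the processed signals overlapped, at 1731 and 1776 on the control array against 1610 and 1855. The lower value of Egfr therefore rests on the array scaling, and 17.6% of all measured genes were at least as low.

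Erbb2, the receptor without a known ligand of its own that pairs with the other family members, was measured by 3 probes. The first, with 1 spot, gave a relative signal of 0.0366 on the control array and 0.0260 on the knockdown array. The second, also with 1 spot, gave 3.87 and 2.60. The third gave 0.973 and 0.982 on the control array and 0.820 and 0.844 on the knockdown array. All 3 probes were lower with the Pla2g4c siRNA, by differences of -0.49, -0.57 and -0.23. The mean over probes was -0.43 ± 0.23, or 1.35-fold lower, and 15.8% of genes were at least as low.

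Erbb3, a receptor with little kinase activity of its own that binds neuregulins and couples strongly to PI3K, had the highest difference among the members. Its 2 spots had relative signals of 0.0244 and 0.0270 on the control array and 0.0337 and 0.0412 on the knockdown array. The spots did not overlap, and the difference was 0.54 ± 0.28, or 1.45-fold higher. The probe was dim, with processed signals of 20.8 and 23.0 on the control array and 37.2 and 45.5 on the other. Normexp background correction adds an offset of 50 before the arrays are scaled, which draws the unscaled ratio of dim spots towards 1. Scaling to each array's 75th percentile, which in processed signal was higher on the knockdown array, comes after. A dim spot is therefore not drawn to a scaled difference of 0. Under this setting the difference was -0.047, and the median over all genes -0.069. That setting also starts from the median spot signal, and which of these steps moved Erbb3 was not tested.

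Among the measured ligands, Areg had the most spots, since its probe was printed in 10. On the control array the relative signal ran from 1.41 through a median of 1.464 to 1.503, and on the knockdown array from 1.23 through 1.29 to 1.33. All 10 spots were lower with the Pla2g4c siRNA than any spot on the control array, and the SD of the log2 values over spots was 0.026 and 0.035. The difference was small, -0.19 ± 0.20, or 1.14-fold lower, and 31.9% of all genes were at least as low. The separation of the spots shows how exactly the arrays repeated a spot, not how far cultures vary. Before scaling, the processed signals ran the other way, from 1200 to 1280 on the control array and from 1364 to 1471 on the knockdown array.

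Tgfa, which encodes transforming growth factor alpha, was measured by 2 probes that disagreed. The first had relative signals of 0.894 and 0.966 on the control array and 1.45 and 1.57 on the knockdown array, a difference of 0.70 ± 0.20, or 1.62-fold higher. The second had 0.208 and 0.224 on the control array and 0.210 and 0.215 on the knockdown array, a difference of -0.022 ± 0.21 with overlapping spots. The mean over both was 0.34 ± 0.21, and 18.6% of genes were at least as high. Whether the probes read different transcripts of the gene was not tested.

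Ereg encodes epiregulin, a ligand of Egfr and of the neuregulin receptor Erbb4. Its relative signals were 0.0296 and 0.0406 on the control array and 0.0411 and 0.0519 on the knockdown array. The upper control spot and the lower Pla2g4c siRNA spot nearly met, and the difference was 0.41 ± 0.27, or 1.33-fold higher. Like Erbb3 the probe was dim, and under normexp the difference was -0.098. Hbegf, the heparin-binding ligand, had relative signals of 0.155 and 0.187 on the control array and 0.193 and 0.197 on the knockdown array. Its difference of 0.20 ± 0.21 was no larger than the software error, and 29.5% of genes were at least as high.

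Btc, which encodes betacellulin, was not well above background at either spot on either array, and no fold is given. In the RefSeq gene table (assembly GRCr8) Btc, Areg, Ereg and Epgn follow each other on chromosome 14 with no other protein-coding gene between them. Within that cluster Areg was lower and Ereg higher under the main scaling, Btc was not well above background, and Epgn was not analysed here.

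Errfi1 encodes the protein also called Mig6 or RALT, which binds the kinase domain of activated EGF receptors and shuts it off, and whose transcript is itself induced by receptor signalling. Its relative signals were 0.706 and 0.737 on the control array and 0.879 and 0.949 on the knockdown array, with no overlap. The difference was 0.34 ± 0.20, or 1.27-fold higher, and 18.5% of genes were at least as high.

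Of the 11 measured member probes, 9 had at least 2 spots. In 5 of them every Pla2g4c siRNA spot was higher than every control spot, in 3 every one was lower, and in 1 the spots overlapped. Across all such probes on the array 37.8% were separated upward and 39.7% downward, so separated spots were common and do not mark the members.

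**Figure D2:**
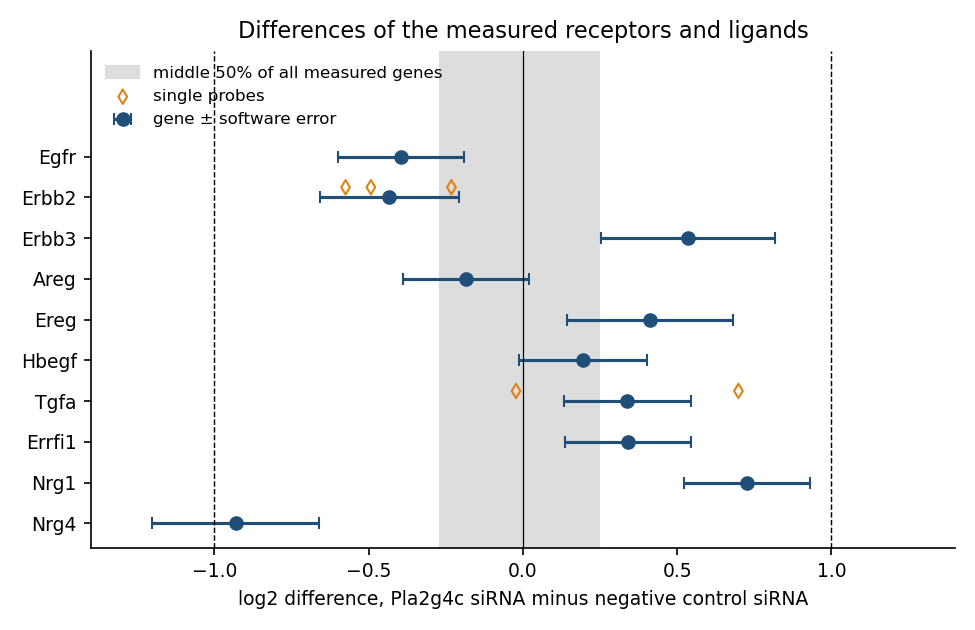
The horizontal axis is the log2 difference, Pla2g4c siRNA minus negative control siRNA; blue points are genes with the software error as bars, orange diamonds the probes of genes with several, the grey band the middle 50% of the 9026 measured genes and dashed lines 2-fold. Egfr and Erbb2 lie to the left of the band, Erbb3, Ereg, Tgfa and Errfi1 to its right and Areg and Hbegf within it, while Nrg1 and Nrg4 lie farthest out.

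The side of 0 on which several members lay changed with the scaling. Errfi1, Tgfa and Hbegf were above 0 under all 7 normalizations or sources of values, from 0.30 to 0.89 for Errfi1, from 0.22 to 0.89 for Tgfa and from 0.077 to 0.74 for Hbegf. For Tgfa this holds for the mean of its disagreeing probes and for the first alone, from 0.58 to 1.25. The second probe was above 0 only in the deposited values (0.11) and with spike-in scaling (0.52). It was lowest under normexp, at -0.13, and lay below the median gene under every scaling. Egfr, Erbb2 and Areg were below 0 under 6 of the 7 and above it under spike-in scaling, at 0.15, 0.11 and 0.36, where the median over all genes was 0.54. All 3 thus stayed below the median gene under every scaling. Median scaling, spike-in scaling and the deposited values shift all genes of the main scaling by the same constant. A place relative to the median gene could therefore not change among these settings. Only normexp, quantile normalization and cyclic loess could have changed it. Erbb3 and Ereg were above 0 except under normexp. There the median over all genes was -0.069, so that Erbb3 at -0.047 still lay above the median gene and Ereg at -0.098 below it. Erbb3 reached 2-fold only with spike-in scaling, at 1.08.

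**Figure D3:**
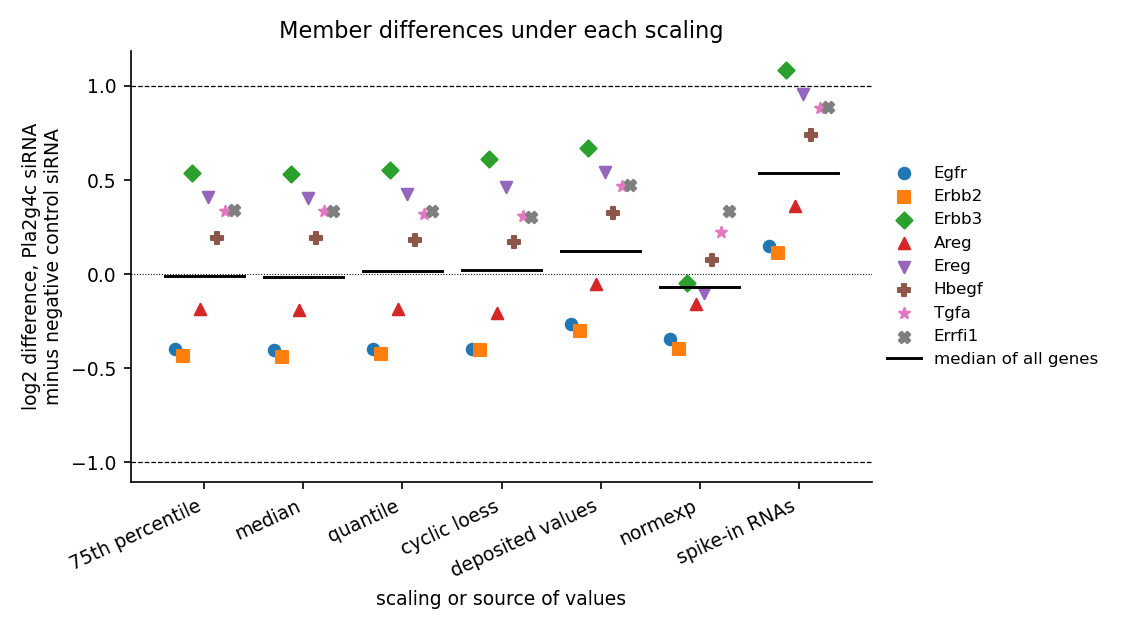
Log2 differences of the 8 measured members under 7 scalings or sources of values, with the median of all genes as a black line and 2-fold as dashed lines. Errfi1, Tgfa (the mean of its disagreeing probes) and Hbegf lie above the line in each column and Egfr, Erbb2 and Areg below it. Ereg falls below it under normexp and Erbb3 comes close to it there.

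The other ligands and the remaining receptor of the family were examined next. Nrg1, which encodes neuregulin 1, the main ligand of Erbb3 and Erbb4, had relative signals of 0.706 and 0.758 on the control array and 1.20 and 1.22 on the knockdown array. Both Pla2g4c siRNA spots were higher, and the difference of 0.73 ± 0.20, or 1.65-fold, exceeded that of every listed member. Of all measured genes 5.86% were at least as high, and the difference lay between 0.65 and 1.27 over the alternatives. Nrg4, an Erbb4 ligand, rested on 1 dim spot with relative signals of 0.0454 and 0.0238, a difference of -0.93 ± 0.27, which was -0.54 under normexp and -0.38 with spike-in scaling. Erbb4, Egf and Nrg2 did not meet the criterion for a measured probe, and Epgn and Nrg3 were not analysed here.

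The wider pathway was described by gene lists, of which 114 genes were measured. At 2-fold 2 were higher and 3 lower, against 2.91% and 3.05% of all genes. Ligand processing and shedding had a median difference of 0.22 over 9 measured genes, 7 of them above 0, where 49.0% of all genes were above 0. Adam17, the main protease that releases Areg, Tgfa and Hbegf, differed by 0.25 ± 0.20, and its partner Rhbdf2 by 0.27 ± 0.20. The highest was Adam9 at 0.34 ± 0.26 and the lowest Adam19 at -0.41 ± 0.37. In this list 0 genes reached 2-fold.

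Receptor adaptors had a median of -0.16 over 11 genes, with 0 at 2-fold. Plcg1, the phospholipase C that docks on the active receptor, was highest at 0.80 ± 0.20, and Grb2, the adaptor that links the receptor to RAS, lowest at -0.78 ± 0.20. Receptor turnover and traffic had a median of -0.10 over 17 genes, with 0 at 2-fold, from Hgs, an endosomal sorting protein, at -0.86 ± 0.20 to Cblb, a ubiquitin ligase, at 0.68 ± 0.21. The inhibitors of the receptors and of the pathway had a median of 0.035 over 16 genes, with 0 at 2-fold. Within the Sprouty family of RAS pathway inhibitors Spry2 was highest of the list at 0.86 ± 0.21 and Spry4 lowest at -0.84 ± 0.21.

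The RAS-RAF-MAPK cascade had a median of 0.088 over 14 genes, with Map2k1, which encodes the kinase MEK1, highest at 0.46 ± 0.20. Rps6ka2, a kinase downstream of ERK, was the 1 gene at 2-fold, at -1.22 ± 0.25, but its 2 probes disagreed, at -2.60 and 0.16, and the mean was -0.68 with spike-in scaling. The PI3K-AKT branch had a median of -0.068 over 14 genes, with the catalytic subunit Pik3cb highest at 0.47 ± 0.21. The STAT and SRC branch had a median of 0.20 over 8 genes, from Stat3 at -0.40 ± 0.20 to Jak2 at 0.42 ± 0.20. Both branches had 0 genes at 2-fold.

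Transcripts known to respond to EGF receptor and MAPK signalling lay on both sides of 0, with a median of 0.071 over 27 measured genes, 16 of them above 0. Hmga2, a chromatin protein, was 1.39 ± 0.21 and Etv4, an ETS transcription factor, 1.16 ± 0.21. Fos, an immediate early gene of the AP-1 factor, was -1.28 ± 0.21 and the membrane protein gene Emp1 -1.23 ± 0.20. These were the 4 measured genes of the list at 2-fold. Vgf, a secreted neuropeptide precursor, stood above background with the Pla2g4c siRNA only, and its bound was 5.58-fold higher. The bound was set against the lowest probe signal well above background on the control array or its own signal there, whichever was higher. It is not a strict limit, since some control spots without the flag were brighter than that lowest signal. With spike-in scaling Fos was -0.73 and Emp1 -0.68, short of 2-fold, and under normexp so were Fos at -0.99, Hmga2 at 0.87 and Etv4 at 0.89.

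**Figure D4:**
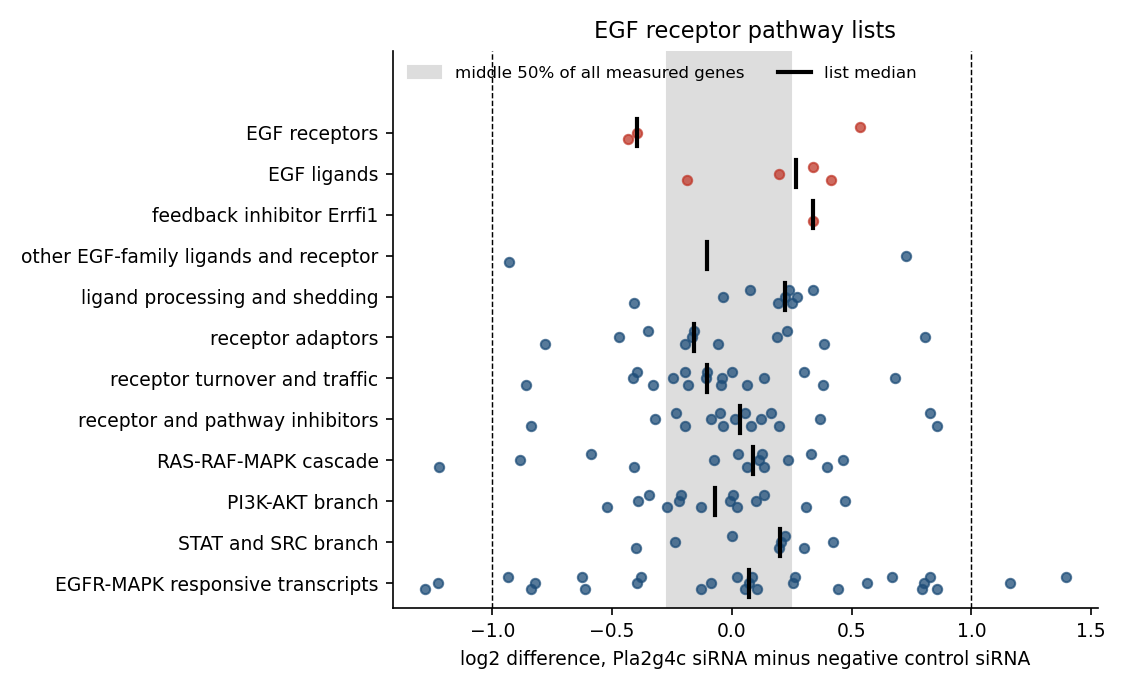
Each point is a measured gene, placed by its log2 difference, Pla2g4c siRNA minus negative control siRNA, with the members in red, the other lists in blue, list medians as black bars, the middle 50% of all genes in grey and 2-fold as dashed lines. The points beyond 2-fold are Rps6ka2 in the MAPK cascade and Fos, Emp1, Etv4 and Hmga2 among the responsive transcripts.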

How the data were processed

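Cy3-labelled RNA of each group was read on an Agilent rat array. The deposited scanner files hold spot intensity on a linear scale, background-subtracted and detrended within the array by Agilent's Feature Extraction software (version 10.10.1.1 in the file headers and 10.10 in the submitters' processing notes) and not normalized between arrays. The software's flags, used as deposited, are 0 or 1. A deposited table holds each array's intensity times a constant, 1.77 (control) and 1.50 (Pla2g4c siRNA) by comparison with the scanner files. The origin of the constants is unknown here.

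Processed signals were divided by the 75th percentile of the array's gene spots and log2-transformed. Spots with an outlier flag on either array were left out (466 and 381 spots carried one, and 0 were saturated). Spots of a probe were averaged, then measured probes of a gene. Genes were named by matching RefSeq accessions without version to the GRCr8 gene table, which named 18006 of 30367 probes. The depth of an array is its signal over background, which 61.9% and 63.1% of gene spots clearly exceeded. The number of arrays limits the precision. Both arrays share the slide and scan. Without a replicate array in either group, a batch effect could not be tested. Any difference in culture, transfection, RNA preparation, labelling or array position coincides with the siRNA and cannot be separated from it.

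With 1 array per group there was no test, and genes were counted at 2-fold. The members and lists were chosen with earlier results of these data known. Named genes were the members, the other EGF-family genes, and of each pathway list the highest, the lowest and those at 2-fold. Adam17, Rhbdf2, Dusp1, Dusp4, Spred2 and the single markers were named after their values were seen. Of the genes so chosen, 1 is not reported here. Alternatives were normexp (offset 50, on the median spot signal, since the planned mean signal is not a column used here), median scaling, quantile normalization, cyclic loess, spike-in scaling, the deposited values, the brightest probe, no filter on dim probes, flagged spots kept, and 1.5-fold and 3-fold thresholds. Software was limma 3.58.1 in R 4.3.3, and numpy 2.4.6, pandas 2.3.3 and matplotlib 3.10.9 in Python 3.11.15. The steps were tested on simulated data.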

Additional observations from a re-analysis of the deposited data

How the results depend on the processing

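Of 72 member differences recomputed under an alternative, 61 moved by less than the software error and 11 by more, 8 of these under spike-in scaling. The others were Erbb3 and Ereg under normexp and Tgfa with its brightest probe alone (0.70). Many of these outcomes were fixed in advance, so the counts do not measure robustness. Keeping flagged spots or dim probes left every measured member unchanged, and the brightest probe could alter only Erbb2 and Tgfa. Median scaling, spike-in scaling and the deposited values each move all members by 1 constant. The 8 moves under spike-in scaling are therefore 1 shift. The count of members at 2-fold was 0 in each direction under every alternative except spike-in scaling, where 1 was higher. Genes at 2-fold numbered 263 higher and 275 lower. They numbered 116 and 154 under normexp, 1169 and 68 with spike-in scaling, 539 and 765 without the filter on dim probes, 784 and 929 at 1.5-fold, and 85 and 65 at 3-fold. The pathway lists had 5 genes past the threshold, and 2 under normexp, 13 with spike-in scaling, 10 without the filter, 23 at 1.5-fold and 0 at 3-fold. The ligand median was 0.27, -0.011 under normexp and 0.81 with spike-in scaling, and the receptor median was -0.40 and 0.15 with spike-in scaling. Why spike-in scaling and the percentile differ was not tested. Bounds were computed under the main scaling only. Dim probes (Erbb3, Ereg, Nrg4) are limited by their signal over background, and every difference by 1 array per group. No paired analysis was possible because each group holds 1 array.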

Other observations

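Egf, the ligand that gave the family its name, had a probe printed in 10 spots. On the control array 0 of the 10 were well above background and on the knockdown array 2 were. The processed signal of these spots ran from 2.70 through a median of 6.01 to 14.9 on the control array and from 7.87 through 11.5 to 18.0 on the other. The ranges overlapped, and no fold is given. At 8 of the 10 spot positions the scaled signal was higher on the knockdown array, but most of these spots were not distinguished from background. How often other dim probes give such a count was not computed. A second Egf probe had 0 of 2 spots well above background on either array. Its scaled signal was higher on the knockdown array at 1 of the 2 positions.

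For Nrg2, which encodes another neuregulin, the 2 spots of 1 probe disagreed within the control array, with processed signals of 4.36 and 37.0, of which the latter was well above background. On the knockdown array the same spots gave 4.82 and 4.88, and neither was well above background.

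Dusp1 and Dusp4, phosphatases that act on MAP kinases, stood above background with the Pla2g4c siRNA only. The bound described for Vgf put them 1.24-fold and 1.21-fold higher, from dim log2 relative signals of -5.93 and -5.96 there. No error was computed for a bound. Spred2, a measured gene of the inhibitor list and about as dim, was 1.25-fold lower within its software error, at -0.32 ± 0.44. The bounds of Dusp1 and Dusp4 are thus not shown to exceed technical error.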
